A study of Mus musculus with 12 samples.

Results

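The genes of the receptors for glutamate, GABA and glycine were followed in bulk RNA-seq of mouse medulloblastoma, a tumour of the cerebellum. Members were taken by symbol from the 15672 genes of the table: ionotropic and metabotropic glutamate receptors, every gene whose symbol starts with Gabr, both GABA-B receptor genes and the glycine receptor genes. This gave 48 members in 13 receptor classes, 3 of them glycine receptor genes. A further 4 annotated genes of these families, Gabrp, Gabrr3, Glra3 and Glra4, were not analysed here.

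YSGr tumours had the genotype fYap1;fSMO-M2;hGFAPcre, and the labels name them rescued without saying of what. SG tumours had the genotype fSMO-M2;hGFAPcre. Both therefore carried conditional SMO-M2, a constitutively active version of Smoothened, which transduces the Hedgehog signal, and Cre recombinase driven by the human GFAP promoter, which is active in neural progenitors and their descendants and not in granule cell progenitors alone. YSGr tumours carried in addition a floxed allele of Yap1, which encodes a transcriptional coactivator of the Hippo pathway. All were collected at end point, with no age given. There were 12 libraries, 3 in each of 4 groups: YSGr females (numbered 10, 11 and 12), YSGr males (7, 8 and 9), SG females (4, 5 and 6) and SG males (1, 2 and 3). Nothing in the labels says that they came from separate animals, so p-values measure only the spread among these samples, and part of it may be technical.

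Glutamate is the main excitatory transmitter of the brain and GABA the main inhibitory one, with glycine beside it in the brain stem, spinal cord and parts of the cerebellum. AMPA, kainate and NMDA receptors are tetrameric cation channels, GABA-A and glycine receptors are pentameric chloride channels, and metabotropic glutamate and GABA-B receptors signal through G proteins. In the cerebellum, granule neurons switch their receptor subunits as they mature: GluN2B gives way to GluN2A and GluN2C, and the GABA-A subunits alpha 6 and delta appear late. Medulloblastoma of the Hedgehog type arises from granule neuron progenitors.

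The values were log2 CPM (log2 of reads scaled to a common library size, with a small prior count), and libraries held an estimated 8854771 to 9478655 reads. Of the members, 42 reached more than 0 log2 CPM in 3 or more libraries and were tested. Gabra5, Gabre, Gabrr1, Gabrr2, Glra1 and Grm6 did not, and Grm8 and Gabrq passed only with the help of YSGr libraries. Yap1 was lower in every YSGr library than in every SG library, at -0.02 to 1.82 log2 CPM in YSGr tumours and 4.29 to 4.80 in SG tumours (log2 fold change -3.64, SE 0.20, n = 6 each, limma adjusted p = 1e-06). In bulk tissue, fewer cells of a type and less RNA per cell cannot be told apart. YSGr male 8 and SG male 2 stood apart from the rest of their groups in many members, as described below.

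Of the 42 tested members, 5 were higher and 0 were lower in YSGr than in SG tumours with the sexes averaged (limma, Benjamini-Hochberg adjusted p under 0.05), which is 11.9% of them. Over all 14147 genes tested, 11.4% passed in either direction, 6.16% as higher and 5.27% as lower. Among the 5 were Glrb, the anchoring subunit of glycine receptors, Gria2, the AMPA subunit that limits calcium entry, and Grin1, the obligatory NMDA subunit. At an unadjusted p under 0.05 there were 11 members, all higher, or 26.2% of members against 28.6% of all genes. The others included Grin2a, Grin2b, Grik2, Grm7 and Gabrb2. The median log2 fold change was 0.29 over the tested members and 0.00 over all genes, and 34 members had a positive and 8 a negative fold change. The members' median was 0.16 without YSGr male 8, 0.13 without YSGr female 11 and 0.12 without SG male 2 and YSGr male 8 together, where 25 members were positive and 17 negative. All 6 YSGr libraries lay above all 6 SG libraries in 2 members, Glrb among them, or 4.76% of tested members, against 2.93% of all genes in that direction. In the other direction there were 0 members, against 2.96% of all genes. Without both SG male 2 and YSGr male 8, 7 members passed (16.7%, against 13.7% of all genes in that fit), 4 as higher (Glrb and Gria2 among them) and 3 as lower. The lower ones were Gabrg3 (-1.10, adjusted p = 0.034), Grin3a (-0.39, adjusted p = 0.024) and Grm5 (-0.80, adjusted p = 0.0016), which did not pass with those libraries included.

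**Figure D1:**
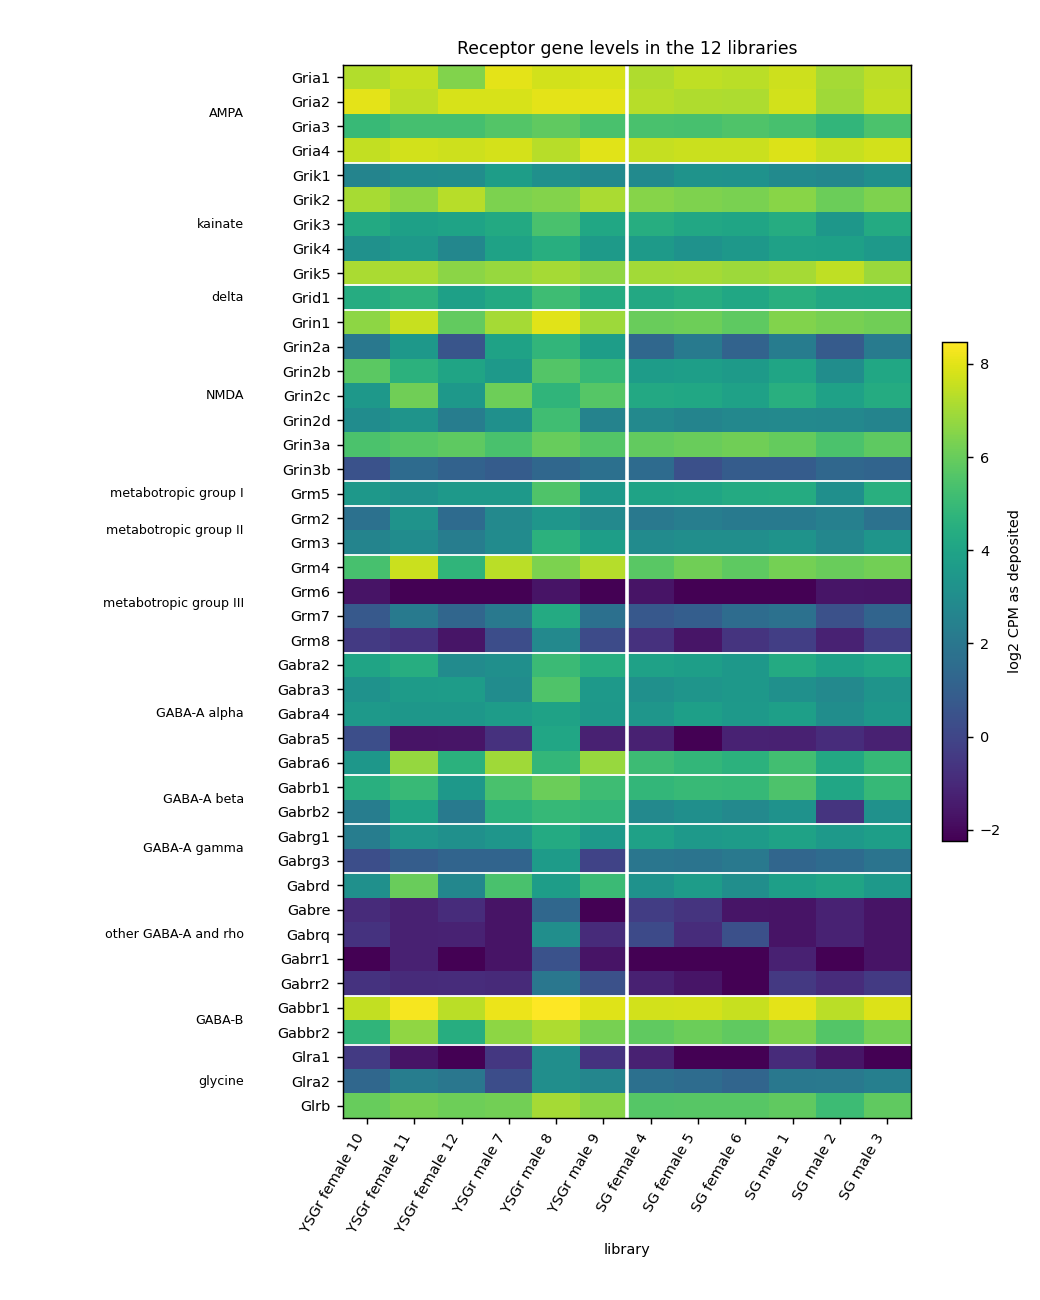
Levels of 43 of the receptor genes (rows, by receptor class) in the 12 libraries (columns, YSGr left of SG) as deposited log2 CPM, shown by colour. Gabbr1, Gria1, Gria2, Gria4 and Grik5 are bright in every library, and the column of YSGr male 8 is brighter than its neighbours in Gabra5, Gabrq, Glra1 and Grm5.

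Promoters are shown for Glrb, Gria2 and Grin1, members with a higher call in the averaged contrast that had a RefSeq promoter (GRCm38.p6, the mm10 assembly). RefSeq promoters of 300 bases, from 250 before to 50 after a start, were matched for 32 of the 48 members, with 39 starts. Gria2 and Glrb are neighbours on the same strand of chromosome 3 (chr3:80681450-80913660 together, GENCODE M21 on mm10) and both moved, which is why their promoters are set beside each other. The Glrb window is chr3:80913611-80913910, the Gria2 window chr3:80802786-80803085 and the Grin1 window chr2:25319138-25319437, all printed 5′ to 3′ on the minus strand. Capitals mark matches to the motifs searched.
Glrb: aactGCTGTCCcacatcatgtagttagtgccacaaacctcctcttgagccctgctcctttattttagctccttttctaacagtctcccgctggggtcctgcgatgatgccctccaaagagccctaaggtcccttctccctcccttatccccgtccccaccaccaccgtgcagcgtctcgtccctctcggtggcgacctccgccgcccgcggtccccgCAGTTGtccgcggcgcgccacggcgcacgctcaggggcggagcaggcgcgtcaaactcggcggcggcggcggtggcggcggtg
Gria2: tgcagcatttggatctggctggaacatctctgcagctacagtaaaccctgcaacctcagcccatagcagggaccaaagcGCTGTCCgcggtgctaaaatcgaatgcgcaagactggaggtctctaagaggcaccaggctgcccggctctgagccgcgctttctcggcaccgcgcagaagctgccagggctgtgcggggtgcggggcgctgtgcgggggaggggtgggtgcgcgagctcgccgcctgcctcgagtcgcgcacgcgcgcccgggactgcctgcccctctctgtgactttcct
Grin1: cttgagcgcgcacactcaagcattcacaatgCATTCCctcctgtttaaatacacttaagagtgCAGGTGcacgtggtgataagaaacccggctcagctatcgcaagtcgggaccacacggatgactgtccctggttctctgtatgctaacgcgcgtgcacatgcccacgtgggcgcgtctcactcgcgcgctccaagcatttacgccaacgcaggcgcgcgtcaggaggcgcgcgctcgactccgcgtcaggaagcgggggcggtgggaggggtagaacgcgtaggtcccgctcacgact
The motifs were searched on both strands: GGAATG (bound by TEAD factors, the partners of Yap1), GGGTGGTC (GLI factors), GGACAGC (an arm of the element bound by the neuronal gene repressor REST), TGACGTCA (CREB) and CAGNTG (the E-box of neuronal bHLH factors). GGACAGC and CAGNTG share letters and could overlap, but no match shown here did. The REST arm was found in the Glrb and the Gria2 window, in reverse orientation (GCTGTCC), and in 4 of the 32 members with a promoter, against 6.56% of all 32851 RefSeq promoters. The TEAD motif was in the Grin1 window, in reverse orientation, and in 7 of the 32 members, against 14.7% of all promoters. The E-box was in the Glrb and Grin1 windows and in 13 of the 32 members, against 51.4% of all promoters. GGGTGGTC and TGACGTCA were in 0 of the 32, against 0.807% and 1.79% of all promoters. A member may have more than 1 start, so these shares do not have the same base, and a match describes letters only.

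AMPA receptors carry most fast excitation. Their genes were among the most abundant members per length of exon: Gria4 averaged 32.2 CPM per kb in YSGr and 32.2 in SG tumours, and Gria1 31.2 in YSGr and 27.2 in SG tumours. Gria2, which encodes the GluA2 subunit that makes AMPA receptors nearly impermeable to calcium, was the AMPA gene that changed. It had 8.02, 7.41 and 7.84 log2 CPM in YSGr females and 7.82, 8.03 and 8.01 in YSGr males, against 7.34, 7.19 and 7.16 in SG females and 7.75, 6.93 and 7.50 in SG males. YSGr female 11 fell below SG males 1 and 3, and the other 5 YSGr libraries lay above every SG library. The log2 fold change was 0.54 (SE 0.14, n = 6 each, limma adjusted p = 0.027), with 0.53 in females and 0.56 in males. The call was lost in 5 of the 12 fits that left out 1 library, with adjusted p-values of 0.073 without YSGr female 10, 0.052 without YSGr male 8, 0.054 without YSGr male 9, 0.068 without SG female 5 and 0.074 without SG female 6.

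Within the family, Gria2 made up 13.5 to 23.0% of AMPA subunit RNA per kb of exon in YSGr libraries and 12.6 to 15.5% in SG libraries, so the ranges overlapped. Gria4 spanned 7.30 to 7.99 log2 CPM in YSGr tumours (median 7.69) and 7.51 to 7.90 in SG tumours (median 7.63), with a fitted log2 fold change of -0.01 and an SE of 0.12 (adjusted p = 0.96). Gria1 and Gria3 had log2 fold changes of 0.13 and 0.10 (adjusted p = 0.65 for each), with negative values in females (-0.25 and -0.23) and positive values in males (0.51 and 0.43).

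NMDA receptors need glutamate and a co-agonist and pair GluN1 with GluN2 or GluN3 subunits. Grin1, the gene of GluN1, had 6.66, 7.55 and 5.88 log2 CPM in YSGr females and 7.02, 7.98 and 6.92 in YSGr males, against 6.04, 6.11 and 5.82 in SG females and 6.46, 6.27 and 6.15 in SG males. YSGr female 12 lay within the SG range and the other 5 YSGr libraries lay above it. The log2 fold change was 0.86 (SE 0.25, n = 6 each, limma adjusted p = 0.041). This call was kept without YSGr female 12, YSGr male 7 or YSGr male 9, and leaving out any other library gave adjusted p-values of 0.054 to 0.10. Of 10 other settings, 6 kept it. It was lost without the filter, without the mean-variance trend and with genotype alone in the model (limma adjusted p of 0.069, 0.065 and 0.056). It was also lost without SG male 2 and YSGr male 8 together (adjusted p = 0.10). An antisense transcript, Grin1os, shares 13.5% of the exon bases of Grin1, and the use of strand in counting is not given in the sources used here.

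Grin2a, the gene of the mature subunit GluN2A, had the largest averaged fold change of the members, 1.43 (SE 0.44, adjusted p = 0.052), which did not pass the threshold. Besides the fits that left out 1 library, Grin2a passed in 3 of 10 other settings. These were log2(CPM + 1), quantile normalization and library weights (limma adjusted p of 0.036, 0.039 and 0.0067). The levels of Grin2a were 2.06, 3.45 and 0.58 log2 CPM in YSGr females and 3.92, 4.82 and 3.72 in YSGr males, against 1.35, 2.19 and 1.16 in SG females and 2.25, 0.82 and 2.21 in SG males. YSGr males lay above all SG libraries, while YSGr female 12 was the lowest of the 12. In males the log2 fold change was 2.39 (SE 0.62, n = 3 each, limma adjusted p = 0.038), and in females it was 0.47 (adjusted p = 0.83). Without YSGr female 12 the averaged value was 1.79 and passed (adjusted p = 0.0088). It was 1.26 without YSGr male 8 (adjusted p = 0.11) and 1.03 without SG male 2 as well (adjusted p = 0.16), and without SG male 2 alone the adjusted p was 0.099. The male value without both libraries was 1.59 (adjusted p = 0.27).

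Grin2b, the gene of the juvenile subunit GluN2B, differed by 1.05 on the log2 scale (SE 0.36, adjusted p = 0.077), with 3.52 to 5.79 log2 CPM in YSGr tumours and 3.01 to 4.13 in SG tumours. Its highest value was in YSGr female 10, and without SG male 2 and YSGr male 8 the log2 fold change was 0.64. Grin2c, typical of mature granule neurons, differed by 0.77 on the log2 scale (SE 0.40, adjusted p = 0.23) and split the YSGr libraries: 6.14 in female 11, 6.10 in male 7 and 5.65 in male 9, but 3.49 in both female 10 and female 12 and 4.75 in male 8. SG libraries spanned only 3.87 to 4.51. Without YSGr female 11 the log2 fold change of Grin2c was 0.32. Grin2d, Grin3a and Grin3b had log2 fold changes of 0.52, -0.24 and 0.13 (adjusted p of 0.36, 0.24 and 0.78). Grin2d counted 342 reads in YSGr male 8 and 42 to 94 in each remaining YSGr library, against 54 to 66 in SG libraries, and its log2 fold change without YSGr male 8 was 0.13. Grin3b shares 32.1% of its exon bases with Tmem259 on the other strand, so its value is uncertain.

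The makeup of GluN2 RNA was much alike across SG libraries and varied across YSGr libraries. Per kb of exon, Grin2c made up 82.1% of it in YSGr female 11, 84.1% in YSGr male 7 and 78.0% in YSGr male 9, against 38.0% in YSGr female 10, 60.6% in YSGr female 12 and 37.2% in YSGr male 8. SG libraries held 64.6 to 70.1%. In YSGr female 10 the rest was led by Grin2b, at 38.4% against at most 11.9% in SG libraries. In YSGr male 8 it was led by Grin2d, at 38.1% against at most 22.8% in SG libraries.

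**Figure D2:**
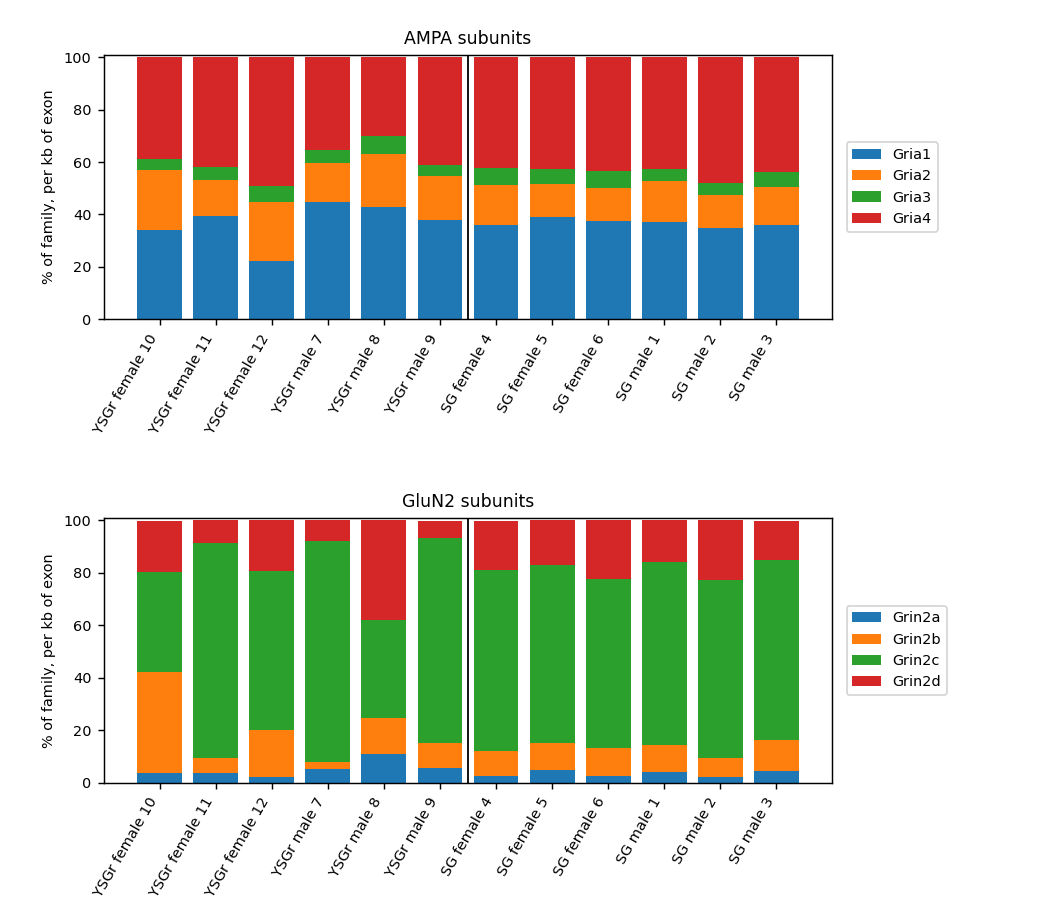
Share of each gene in the RNA of the AMPA family (top) and the GluN2 family (bottom), in percent of CPM per kb of exon, for each library (YSGr left of the line, SG right). In the bottom panel YSGr bars differ among themselves (Grin2c 37.2 to 84.1%), while SG bars are much alike (Grin2c 64.6 to 70.1%).

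Kainate receptors adjust release and excitability. None of the 5 kainate genes passed the threshold in the averaged contrast (0 of 5, median log2 fold change 0.02). Grik2, the gene of GluK2, came nearest, with 6.34 to 7.31 log2 CPM in YSGr tumours (median 6.87) and 6.06 to 6.57 in SG tumours (median 6.39), with a fitted log2 fold change of 0.45 and an SE of 0.15 (adjusted p = 0.071). Grik5, which encodes the high-affinity subunit GluK5 and was the fourth most abundant member per kb, spanned 6.59 to 7.12 in YSGr tumours (median 6.92) and 6.87 to 7.46 in SG tumours (median 7.01), a log2 fold change of -0.16 (adjusted p = 0.41).

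The delta receptors bind cerebellins and organise synapses rather than open to glutamate. Grid1 spanned 3.85 to 5.13 log2 CPM in YSGr tumours (median 4.38) and 4.16 to 4.52 in SG tumours (median 4.20), with a fitted log2 fold change of 0.16 and an SE of 0.18 (adjusted p = 0.58). No delta receptor gene passed the threshold.

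No metabotropic glutamate receptor gene passed the threshold. Group I receptors couple to phospholipase C. Grm5, the mGluR5 gene of this group, had a log2 fold change of -0.25 (adjusted p = 0.66): 5 YSGr libraries lay at 3.24 to 3.57 log2 CPM, and YSGr male 8 stood at 5.52, against 3.09 to 4.53 in SG tumours.

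Group II and III receptors couple to inhibitory G proteins. Grm2 spanned 1.52 to 3.38 log2 CPM in YSGr tumours (median 2.79) and 1.80 to 2.41 in SG tumours (median 2.14), with a fitted log2 fold change of 0.43 and an SE of 0.27 (adjusted p = 0.32). Grm3 spanned 2.32 to 4.63 in YSGr tumours (median 2.93) and 2.71 to 3.35 in SG tumours (median 3.07), with a fitted log2 fold change of 0.13 and an SE of 0.25 (adjusted p = 0.77). The ranges overlapped for both.

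Grm4, the presynaptic receptor of granule neuron axons, was the most abundant metabotropic gene (18.6 CPM per kb in YSGr and 10.9 in SG tumours). It spanned 4.77 to 7.62 log2 CPM in YSGr tumours (median 6.82) and 5.74 to 6.22 in SG tumours (median 6.09), with a fitted log2 fold change of 0.44 and an SE of 0.38 (adjusted p = 0.47). YSGr libraries lay on both sides of the SG range, 4 above it and 2 below. Grm7 spanned 0.75 to 4.30 in YSGr tumours (median 1.92) and 0.40 to 1.77 in SG tumours (median 1.09), with a fitted log2 fold change of 0.95 and an SE of 0.43 (adjusted p = 0.16). It counted 184 reads in YSGr male 8 and 14 to 41 in each remaining YSGr library, and the log2 fold change was 0.55 without that library and 0.37 without SG male 2 as well. Grm8 was near the filter in most libraries, with 93 reads in YSGr tumours, 64 of them in male 8, and 23 reads in SG tumours.

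GABA-A receptors are built from alpha, beta and gamma or delta subunits, and most of their genes lie in chromosomal clusters. On chromosome 7, Gabrg3, the gene of the gamma 3 subunit, was lower in 5 of 6 YSGr libraries (-0.10 to 1.21 log2 CPM) than in every SG library (1.31 to 2.09), with YSGr male 8 at 3.65. Its log2 fold change was -0.57 (SE 0.48, adjusted p = 0.45), and without YSGr male 8 it was -1.08 and passed as lower (adjusted p = 0.026). Without YSGr male 9 it was -0.15. Gabra5, not tested, counted 161 reads in YSGr male 8 with 1 to 10 in each remaining YSGr library, against 0 to 3 in SG libraries.

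**Figure D3:**
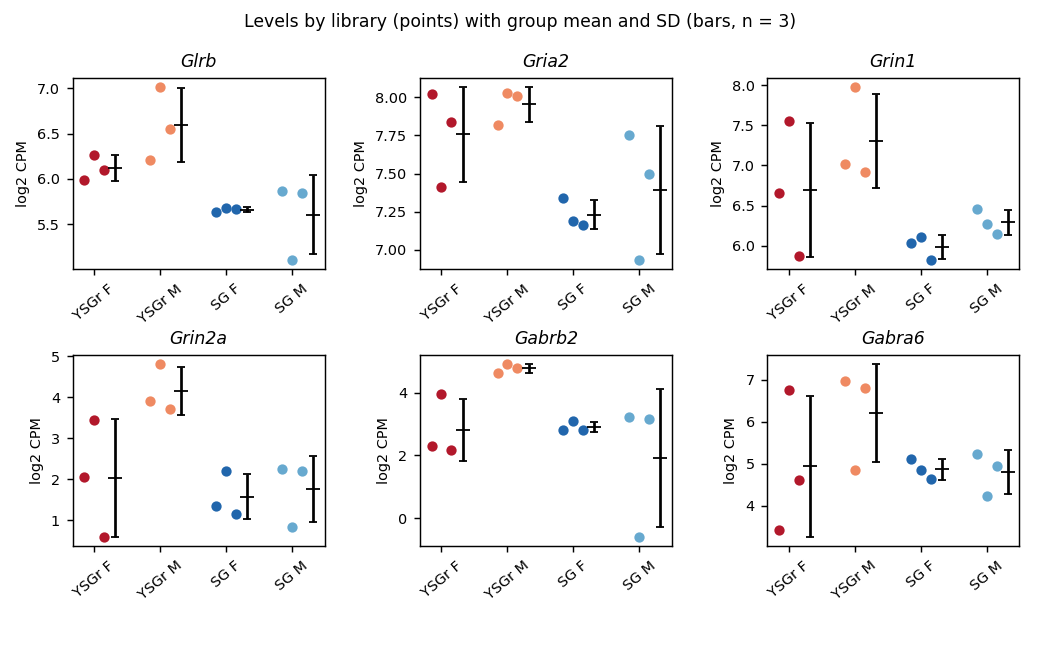
Log2 CPM of Glrb, Gria2, Grin1, Grin2a and Gabrb2, which passed the threshold in at least 1 contrast, and of Gabra6, in each library (points), with the mean and SD of each group of 3 beside them (F, females, M, males). Glrb separates YSGr from SG libraries without overlap, and SG male 2 lies far below the other SG libraries in Gabrb2.

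Gabra6 and Gabrb2 lie on chromosome 11, and their products occur in the receptors of mature granule neurons. Gabrb2 had 2.30, 3.96 and 2.18 log2 CPM in YSGr females and 4.63, 4.92 and 4.79 in YSGr males, against 2.81, 3.09 and 2.81 in SG females and 3.21, -0.61 and 3.16 in SG males. SG male 2 had 4 reads, where the other SG libraries had 62 to 88. The log2 fold change in males was 2.86 (SE 0.79, n = 3 each, limma adjusted p = 0.046), and without SG male 2 it was 1.59 (adjusted p = 0.070). In females it was -0.09 (adjusted p = 0.98), and averaged it was 1.39 (SE 0.56, adjusted p = 0.13), or 0.75 without SG male 2.

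Gabra6, nearly exclusive to granule neurons in the adult cerebellum, had 3.43, 6.76 and 4.61 log2 CPM in YSGr females and 6.96, 4.86 and 6.81 in YSGr males, against 4.23 to 5.24 in SG tumours, and its averaged log2 fold change was 0.74 (adjusted p = 0.34), or 0.28 without YSGr female 11 and 1.11 without YSGr female 10. YSGr female 11 and YSGr males 7 and 9 were high, YSGr female 10 was the lowest of the 12, and YSGr male 8 was within the SG range. Per kb of exon, Gabra6 made up 63.7 to 66.7% of alpha subunit RNA in YSGr libraries 7, 9 and 11 and 19.8 to 52.3% in YSGr libraries 8, 10 and 12, against 46.9 to 55.7% in SG libraries.

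**Figure D4:**
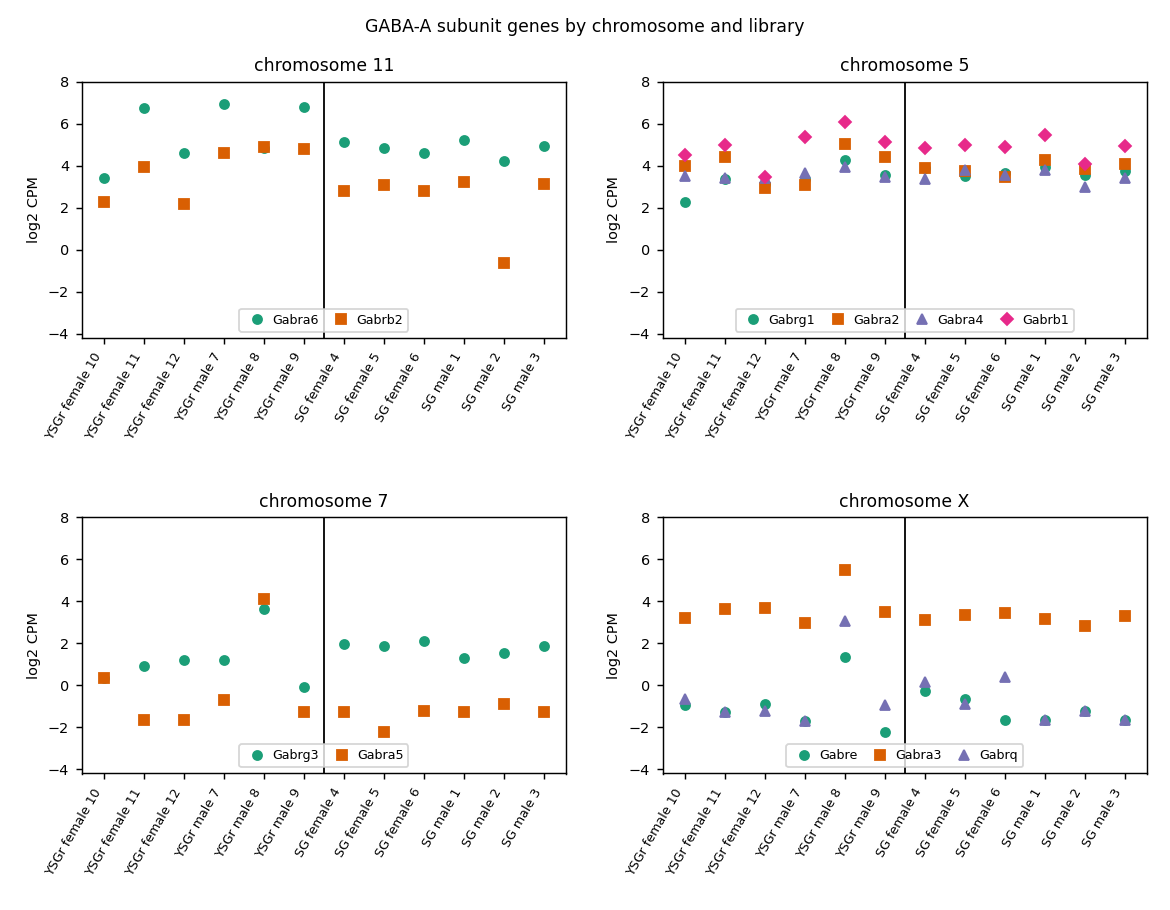
Log2 CPM of GABA-A subunit genes on chromosomes 11, 5, 7 and X (panels) in each library (YSGr left of the line, SG right). In the chromosome 11 panel YSGr females 10 and 12 lie below the other YSGr libraries, and in the chromosome 7 panel YSGr male 8 lies above all other libraries in both genes.

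The cluster on chromosome 5 (chr5:70751047-72149037) had no call in the averaged contrast: Gabra2, Gabra4 and Gabrb1 had log2 fold changes of 0.10, 0.09 and 0.05 (adjusted p of 0.87, 0.75 and 0.92) and Gabrg1 had -0.38 (SE 0.21, adjusted p = 0.25). Gabrg1 lay below every SG library in 4 of 6 YSGr libraries. On the X chromosome (chrX:72255999-72842602), Gabra3 had a log2 fold change of 0.55 (adjusted p = 0.29), with 5.50 log2 CPM in YSGr male 8, 2.97 to 3.68 in the other YSGr libraries and 2.82 to 3.45 in SG libraries. Without YSGr male 8 its log2 fold change was 0.17. Gabrq had 88 reads in YSGr tumours, most of them in male 8, and 26 in SG tumours. Gabre had 31 reads in YSGr tumours, 22 of them in male 8, and 15 in SG tumours.

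Gabrd, the gene of the delta subunit of extrasynaptic receptors, spanned 2.71 to 6.01 log2 CPM in YSGr tumours (median 4.38) and 3.07 to 4.03 in SG tumours (median 3.62), with a fitted log2 fold change of 0.77 and an SE of 0.47 (adjusted p = 0.30), or 0.26 without YSGr female 11. It was high in YSGr female 11 and YSGr males 7 and 9, the same 3 libraries that were high in Gabra6. The rho subunit genes were scarce, with 60 reads of Gabrr2 and 15 of Gabrr1 over 6 YSGr libraries, against 16 and 3 over 6 SG libraries. YSGr male 8 alone held 36 of the Gabrr2 and 11 of the Gabrr1 reads. A floor of 3 reads in 1 library corresponded to 0.301 to 0.333 CPM, which covers counting error only.

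GABA-B receptors are obligate dimers of the products of Gabbr1 and Gabbr2. Gabbr1, the second most abundant member per kb, spanned 7.35 to 8.47 log2 CPM in YSGr tumours (median 8.05) and 7.36 to 8.04 in SG tumours (median 7.76), with a fitted log2 fold change of 0.22 and an SE of 0.17 (adjusted p = 0.42). Gabbr2 was near 0 on average, at -0.01 (SE 0.32, adjusted p = 0.99), with -0.62 in females and 0.61 in males. Per kb, Gabbr1 was at 33.2 CPM in YSGr and 27.7 in SG tumours, and Gabbr2 at 11.7 in YSGr and 9.72 in SG tumours.

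Glycine receptors share the beta subunit encoded by Glrb, which binds gephyrin and holds the receptor at the synapse. Glrb had 5.99, 6.27 and 6.10 log2 CPM in YSGr females and 6.21, 7.02 and 6.55 in YSGr males, against 5.63, 5.68 and 5.67 in SG females and 5.87, 5.10 and 5.84 in SG males. All YSGr libraries lay above all SG libraries. The log2 fold change was 0.73 (SE 0.16, n = 6 each, limma adjusted p = 0.011), 0.99 in males (SE 0.22, n = 3 each, limma adjusted p = 0.024) and 0.46 in females (SE 0.22, adjusted p = 0.36). The averaged call held in all 12 fits that left out 1 library, at 0.60 to 0.82. The male value without SG male 2 and YSGr male 8 was 0.53 (adjusted p = 0.085).

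None of the genes of the ligand-binding alpha subunits was called. Glra2, the form of the developing brain, differed by 0.10 on the log2 scale (SE 0.39, adjusted p = 0.89), with 0.28 to 3.07 log2 CPM in YSGr tumours and 1.26 to 2.37 in SG tumours. Glra1, the adult form, counted 77 reads in YSGr male 8, 0 to 5 in each remaining YSGr library and 0 to 3 in SG libraries, and was not tested. Per kb, Glrb was at 18.1 CPM in YSGr and 10.8 in SG tumours, while Glra2 was at 1.38 in YSGr and 1.10 in SG tumours.

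Taken by sex, 1 of the 42 tested members was higher in YSGr than in SG females and 0 were lower (2.38% called, against 3.01% of all genes, 1.15% as higher and 1.87% as lower). The median log2 fold change was 0.02, with 23 positive and 19 negative values from -1.16 to 1.14. In males 5 were higher and 0 lower (11.9%, against 7.85% of all genes, 4.43% as higher and 3.42% as lower), among them Glrb, Grin2a and Gabrb2. The median was 0.64, with 37 positive and 5 negative values from -0.28 to 2.86. Without YSGr male 8, 0 members passed in males (2.04% of all genes in that fit), and without SG male 2, 1 passed (2.38%, against 2.49% of all genes). YSGr female 11 entered the male test through the shared spread, and without it 11 members passed (26.2%, against 11.8% of all genes). Over the 12 fits that left out 1 library, the male call was kept in 10 for Glrb, 4 for Gabrb2 and 3 for Grin2a, with adjusted p-values of 0.052 to 0.14 where it was lost.

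The female effect minus the male effect, the test of that difference itself, passed for 0 of 42 members (0.00707% of all genes, limma). At an unadjusted p under 0.05 there were 6 members, or 14.3% against 11.6% of all genes. All had a lower log2 fold change in females than in males, Gabrb2, Gria3, Gabrb1, Gria1 and Grin2a among them. The female value was below 0 for Gabrb2 (-0.09), Gria3 (-0.23), Gabrb1 (-0.59) and Gria1 (-0.25), and 0.47 for Grin2a. The difference largest in size was -2.95 for Gabrb2 (SE 1.12, limma adjusted p = 0.43). The median difference was -0.72, against 0.01 over all genes, with 37 of 42 below 0. For Gria2 the difference was -0.04 (SE 0.28, adjusted p = 0.96).

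Within SG tumours, 0 members differed between females and males after adjustment (0.0353% of all genes called, limma), with a median of -0.06. At an unadjusted p under 0.05 there were 0 members, against 1.83% of all genes. With 42 members, 0 is near that share. Within YSGr tumours, 0 passed after adjustment (0.0778% of all genes called, 0.0565% as lower, limma). At an unadjusted p under 0.05 there were 14 members, all lower in females, or 33.3% of members against 18.1% of all genes in either direction. The median was -0.77, with 39 of 42 below 0, and Grin2a stood at -2.12 (SE 0.62). YSGr female 11 decides this count: without it 14 members passed after adjustment (33.3%, against 7.27% of all genes in that fit), and 0 passed in the other 11 fits that left out 1 library. YSGr female 11 resembled YSGr males 7 and 9 in Gabra6, Gabrd, Grin2c and Grm4, where YSGr females 10 and 12 were low.

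**Figure D5:**
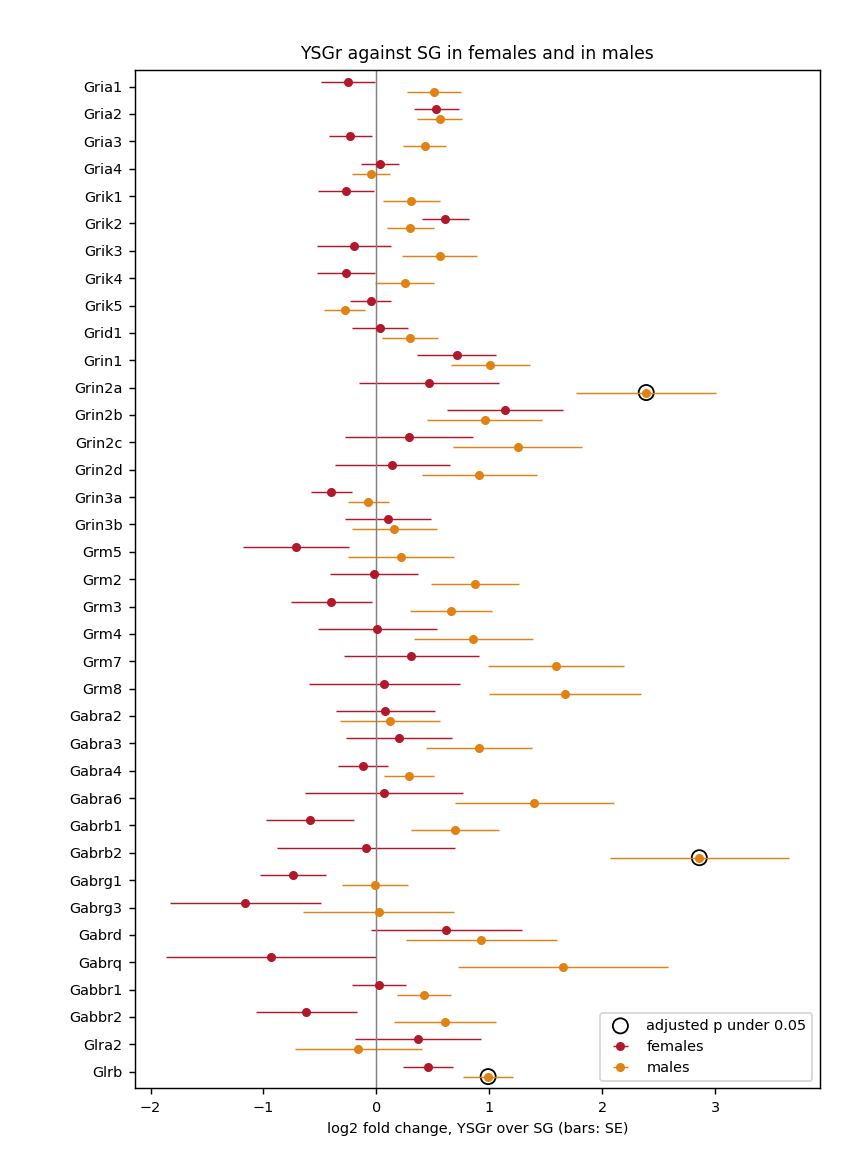
Log2 fold change of YSGr over SG for 37 of the tested members, in females (red) and males (orange), with the standard error as bars. Black circles mark an adjusted p under 0.05: Glrb, Grin2a and Gabrb2 in males.

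The genes that work with these receptors moved unevenly. Among transporters and enzymes of glutamate, 2 of 12 tested genes were higher and 1 was lower in YSGr tumours in the averaged contrast: the glutaminase gene Gls2 (0.97, adjusted p = 0.026) rose, and Slc7a11, the cystine and glutamate exchanger, fell (-1.38, adjusted p = 0.036). Among 24 AMPA, kainate and delta receptor partners, 2 were higher and 3 lower. The AMPA auxiliary subunit gene Cacng5 had 1.07 (adjusted p = 0.0024), while Gsg1l had -0.90 (adjusted p = 0.0018), Cacng4 -0.79 (adjusted p = 0.0012) and the scaffold Grip1 -0.60 (adjusted p = 0.014). Of 22 excitatory scaffold genes 3 were higher and 0 lower: Dlg2 (0.97, adjusted p = 0.012), Camk2b (0.72, adjusted p = 0.031) and Dlgap1 (0.71, adjusted p = 0.024). These adjusted p-values are from limma over all genes tested.

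Among 17 genes of metabotropic signalling, 6 were higher and 2 were lower, with a median of 0.50 against 0.00 over all genes. The potassium channel genes opened by G proteins led: Kcnj9 (1.74, limma adjusted p = 0.0013) and Kcnj6 (1.59, adjusted p = 0.0016). The phospholipase gene Plcb4 was higher (0.77, adjusted p = 0.0089) and the G protein gene Gnai2 was lower (-0.78, adjusted p = 0.0024). Of 7 GABA-B partners, Ajap1 (1.11, adjusted p = 0.0075) and Kctd8, an auxiliary subunit (0.79, adjusted p = 0.028), were higher and 0 were lower.

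On the inhibitory side, 5 of 17 scaffold genes were higher and 0 lower, among them Plcl1 (1.24, limma adjusted p = 0.0098), which binds GABA-A beta subunits, and the neurexins Nrxn3 (0.91, adjusted p = 0.040) and Nrxn2 (0.53, adjusted p = 0.021). Gephyrin (Gphn), the scaffold that Glrb binds, had 0.08 (SE 0.08, adjusted p = 0.54). Of 11 genes of GABA and glycine synthesis and transport, 0 were higher and 1 was lower, the glial GABA transporter Slc6a11 (-1.01, adjusted p = 0.026). Of 6 chloride transport genes, 0 were higher and the potassium chloride cotransporter Slc12a7 was lower (-1.06, adjusted p = 0.00042). These lists cover other genes and are described by count beside the 6.16% higher and 5.27% lower over all genes.

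Markers of several cell types moved beside the receptor genes, and their part in these results was not tested. Markers of granule neuron progenitors were lower in 6 of 14 and higher in 0, with summed levels of 4300 to 7110 CPM in YSGr and 6120 to 6970 CPM in SG tumours. Mature granule neuron markers were higher in 6 of 18 and lower in 0 (3350 to 5440 CPM in YSGr, 2490 to 3500 in SG tumours), and pan-neuronal markers in 4 of 13 and 0 (2580 to 5030 in YSGr, 2030 to 2950 in SG tumours). Both lists include Snap25, Stmn2 and Rbfox3. The mature granule list shares 1 gene with the scaffold list and further genes, none of them called, with other pathway lists.

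Purkinje cell markers were higher in 0 and lower in 1 of 11, but their summed level split the YSGr libraries as Gabra6, Gabrd and Grin2c did: 1990 CPM in female 11, 2380 in male 7 and 1790 in male 9, against 324 in female 10, 321 in female 12 and 859 in male 8. SG libraries held 717 to 1190 CPM. Oligodendrocyte markers summed to 10800 CPM in YSGr male 8, 368 to 2690 in the other YSGr libraries and 1010 to 2400 in SG libraries, with 0 of 8 called. That library also held the highest Gabra5, Glra1, Gabrq, Gabra3 and Grm5. Its pan-neuronal sum (5030 CPM) and GABAergic interneuron sum (723 CPM) were the highest of the 12, and its granule neuron progenitor sum (4300 CPM) the lowest. GABAergic interneuron markers summed to 282 to 723 CPM in YSGr and 300 to 400 CPM in SG tumours, with 0 of 12 called, and share Gad1, Gad2, Slc32a1 and Slc6a5 with the synthesis and transport list.

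Among non-neuronal lists, microglia and macrophage markers were higher in 4 of 11 and lower in 0 (775 to 1220 CPM in YSGr, 515 to 596 in SG tumours). Astrocyte and Bergmann glia markers were higher in 1 and lower in 3 of 13 (1700 to 4010 CPM in YSGr, 2560 to 3810 in SG tumours), oligodendrocyte precursor markers higher in 1 and lower in 3 of 8, endothelial markers higher in 1 and lower in 4 of 8, and pericyte and fibroblast markers higher in 1 and lower in 3 of 10. Unipolar brush cell markers were higher in 1 of 5, markers of forebrain and cerebellar nuclear neurons higher in 1 and lower in 1 of 8, and ependymal markers lower in 1 of 5. Some called genes count in more than 1 list, so these counts are not separate. Slc6a11 is a lower gene of both the astrocyte and the GABA transport list. Plcb4 is a higher gene of both the unipolar brush cell and the metabotropic signalling list. The oligodendrocyte precursor and pericyte lists share a lower gene. No marker in the table was at or under 3 reads in every library.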

How the data were processed

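Per the labels, total RNA of tumour tissue was sequenced with a BGISEQ-500 instrument. The authors deposited 1 table of log2 CPM with 15672 genes and 12 libraries. The submitters' processing notes name Trimmomatic 0.33, RSEM 1.2.12, Bowtie2, Picard 1.95, edgeR 3.30.3 and mm10. What each tool did, which annotation was used and whether strand was used is not given in the sources used here. The lowest log2 CPM was -2.24 in every library, which a prior count averaging 2 reads gives. Reads were estimated back from it and were whole within 0.02 for 92.1 to 93.1% of genes. Floors and intervals cover counting error only.

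The log2 CPM values were tested as deposited with limma 3.58.1 (R 4.3.3, statmod 1.5.0), 1 coefficient per group of 3, eBayes with a mean-variance trend, two-sided, Benjamini-Hochberg adjusted over 14147 genes at 0.05. Fold changes include the prior count and understate the change of low genes. On simulated data for this design, 189 of 200 changed genes were recovered. Recovery at log2 fold changes of 0.54 to 0.86, those of the members called in the averaged contrast, was not tested. Exon lengths and coordinates are from GENCODE M21 (mm10), and CPM per kb divides CPM by the length of merged exons. Values are given for 15 named members: those past the threshold in any contrast, and in each class the most abundant and the one with the largest averaged change. The other members, and all genes outside the family, are given by range, count or the same rule. Some genes that enter these fits and counts are not reported here. Alternatives changed the filter, pseudocount, scaling, variance model, library weights, the libraries fitted and the covariates. The members and lists were chosen with earlier results of these data known. There were 0 pairs of libraries with identical values.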

Additional observations from a re-analysis of the deposited data

Results flagged for a closer look

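Within 6 libraries of a genotype, the highest or lowest library was tested for a gap to the nearest other that, as a share of the whole range, was above Dixon's 95% critical value. Of 86 groups (43 members in 2 genotypes) 16 exceeded it. The members were measured in the same libraries and are not independent, so this count cannot be set against a chance rate. Each group pooled both sexes, and the share over all genes is not given here. The gaps were concentrated in a few libraries.

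YSGr male 8 was the highest YSGr library in 9 members. The gap was 0.718 of the range in Gabra3, 0.654 in Gabra5, 0.650 in Gabrg3, 0.785 in Gabrq, 0.634 in Gabrr1, 0.661 in Glra1, 0.731 in Grik3, 0.643 in Grin2d and 0.856 in Grm5. Grm5 counted 431 reads there, against 89 to 114 in each remaining YSGr library, and Gabrq counted 76, against 1 to 4. The same library had the highest marker sums of oligodendrocytes (10800 CPM), of neurons in general (5030 CPM) and of GABAergic interneurons (723 CPM). It had the lowest sum of granule neuron progenitor markers (4300 CPM). The part of any of these cell types in the gaps was not tested.

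SG male 2 was the lowest SG library in 4 members, with gaps of 0.894 in Gabrb2, 0.694 in Glrb, 0.753 in Gria3 and 0.626 in Grm5, and the highest in Grik5, with a gap of 0.710. Gabrb2 had 4 reads there and 62 to 88 in the other SG libraries.

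In Gria2, YSGr female 11 was the lowest YSGr library with a gap of 0.671. In Gabra5, SG female 5 was the lowest SG library with a gap of 0.712, which rests on 0 reads against 2 to 3.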

How the results depend on the processing

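The averaged call of Glrb held in all 12 fits that left out 1 library and in the 10 other settings. Of 396 values for named members, 332 kept direction and side of the threshold. The cause of the changes below was not tested. With library weights, 13 members were called in the averaged contrast (9 higher, 4 lower, median 0.10), or 31.0% against 35.2% of all genes (4986). With the same weights, females gave 16 (38.1%, against 31.7% of all genes, 4483) and males 13 (31.0%, against 16.4%, 2326 genes, median 0.27). The difference of effects gave 7 (16.7%, against 4.77%, 675 genes). Between the sexes there was 1 in SG (2.38%, against 0.198%, 28 genes) and 20 in YSGr (47.6%, against 12.9%, 1819 genes). With genotype alone, 3 were called (7.14%, against 9.26% of all genes). Fitted on 1 sex only, females gave 3 (7.14%, against 5.38% of all genes, 761) and males 1 (2.38%, against 2.25%, 318 genes). In males, no filter gave 2 (4.17% of 48 members, against 4.91% of all genes) and no trend gave 2 (4.76%, against 5.24%). Without SG male 2 and YSGr male 8 together, females gave 3 (7.14%, against 8.96% of all genes, 1267). Males gave 2 in that fit (4.76%, against 1.75%, 247 genes, median 0.24). The medians there were -0.13 for the difference and -0.32 between the sexes in YSGr (19 genes). Small values changed sign: Gria4 was 0.02 under quantile normalization and 0.04 without both libraries, Gabbr1 was -0.01 and Grm3 -0.16 with weights, and Grm3 -0.19 and Grid1 -0.00 without both.

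Leaving out 1 library gave 2 to 8 members and 903 to 2087 genes in the averaged contrast (fewest members without SG female 5, most without YSGr female 12), 0 to 2 and 94 to 785 in females, 0 to 11 and 289 to 1665 in males (median 0.35 to 0.83), 0 to 2 and 1 to 115 for the difference (median -0.84 to -0.36), and 0 to 14 and 9 to 1029 between the sexes in YSGr (median -1.01 to -0.32), the highest 3 counts without YSGr female 11. In SG it gave 5 genes in each fit. In the averaged contrast, the 2 members were 4.76% against 6.5% of all genes, and the 8 members 19.0% against 14.8%. Without YSGr female 11 the shares were 4.76% against 3.24% in females and 26.2% against 11.8% in males. They were 4.76% against 0.813% for the difference and 33.3% against 7.27% between the sexes in YSGr. Gria4 ranged from -0.09 to 0.09 and Grm3 from -0.09 to 0.34. No paired analysis was possible because the groups share no replicate numbers.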
